A study of Mus musculus with 6 samples.

Results

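Compact genes, here those whose locus spans under 10000 bp and whose vehicle value lies under 50 units, made up 69 of the 475 genes that the authors listed as changed in the mouse hippocampus by the histone deacetylase inhibitor CI-994. The table held 109 genes with loci under 10000 bp. Of these, 92 were under 50 units, and 23 were set aside by name, among them Fos, Arc, Npas4, Penk, Vip, Htr1a and Kcne2. The genes were chosen by their locus and by the vehicle value, which also enters the ratio. Their ratios are therefore given as a description, and no test was made on them.

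The 6 mice were C57Bl/6 aged 4 months. All of them were fear conditioned to a context, recalled that memory and then went through spaced extinction training. Of the 2 groups, 3 mice were given CI-994 at 30 mg/kg each day and 3 mice its vehicle, and hippocampi were taken 1 h after the final session. Total RNA came from the whole hippocampus of 1 hemisphere, so a change can come from any of its cell types, and in such bulk tissue fewer cells of a type and less RNA per cell cannot be told apart. Each group has 1 value for a gene, in arbitrary units. No spread between mice, depth or replicate check therefore stands behind the values below, and each p-value is that of the authors' deposited table, whose header does not call it adjusted.

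Directions were taken from the labelled group values. The authors' deposited log2 column has the opposite sign in all 475 genes, and every direction below turns around if the labels of the group values were exchanged. The Y-linked Ddx3y stood at 7.73 units in vehicle and 0.0503 in CI-994, and Uty at 2.12 and 0.00821. Xist, the RNA of the inactive X chromosome, stood at 8.46 units in vehicle and 25.3 in CI-994. Sex is not among the labels of these animals, and the part of sex in the results below was not tested. Choroid plexus markers also moved with the groups. Of 52 markers on the list 42 were in the table, all 42 higher, and their values summed to 205 units in vehicle and 830 in CI-994. Of these units Enpp2 alone held 75.3 and 377, and the other 41 markers summed to 129 and 453. For dentate granule cells 20 of 28 markers were in the table, all 20 lower, with sums of 557 and 303 units. For pyramidal cells of CA1, CA2 and CA3 12 of 30 were in the table, 1 higher and 11 lower, with sums of 703 and 485 units. These lists were drawn up with earlier results of these data known, so their one-sidedness is no independent evidence.

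Class I histone deacetylases remove acetyl groups from histone tails, and inhibitors such as the benzamide CI-994 raise histone acetylation, a mark of open chromatin at promoters. Genes with short loci have few or short introns, so that a full transcript is made soon after initiation. Many early response genes, neuropeptide precursors and receptors without introns are of this kind.

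CI-994 mice had the higher value in 37 of the 69 genes (53.6%) and the lower value in 32 (46.4%). Among all listed genes the shares were 41.9% higher and 58.1% lower. The median log2 ratio of CI-994 over vehicle was 0.49, with a range from -2.54 for Ctxn3 to 4.32 for Cox8b, against a median of -0.34 for the table. No gene of the set had an absolute log2 ratio under 0.31, and no gene of the table, which lists changed genes alone, was under 0.29. A change of at least 2-fold was found in 26 genes (37.7%), against 24.0% of the table. Of these 16 were higher, 23.2% of the set against 16.8% of the table, and 10 were lower, 14.5% against 7.16%. The authors' deposited p-values were at or under 0.01 in 28 genes (40.6%, against 49.7% of the table) and at or under 0.001 in 9 of 69, against 25.9% of the table. Large ratios were thus more frequent in the set than in the table, while small p-values were less frequent, as counts without a test. Both contrasts depend on the choice of genes. Under 1 unit in vehicle, changes of at least 2-fold were in 6 of 6 set genes and 35 of 37 table genes. From 1 to under 5 units they were in 18 of 29 and 59 of 126. From 5 to under 25 units they were in 2 of 24 and 16 of 181. At 25 to under 50 units they were in 0 of 10 and 2 of 70. Of the 23 genes set aside by name 18 had a deposited p up to 0.01 in the authors' table. With them put back, 46 of 92 did.

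**Figure D1:**
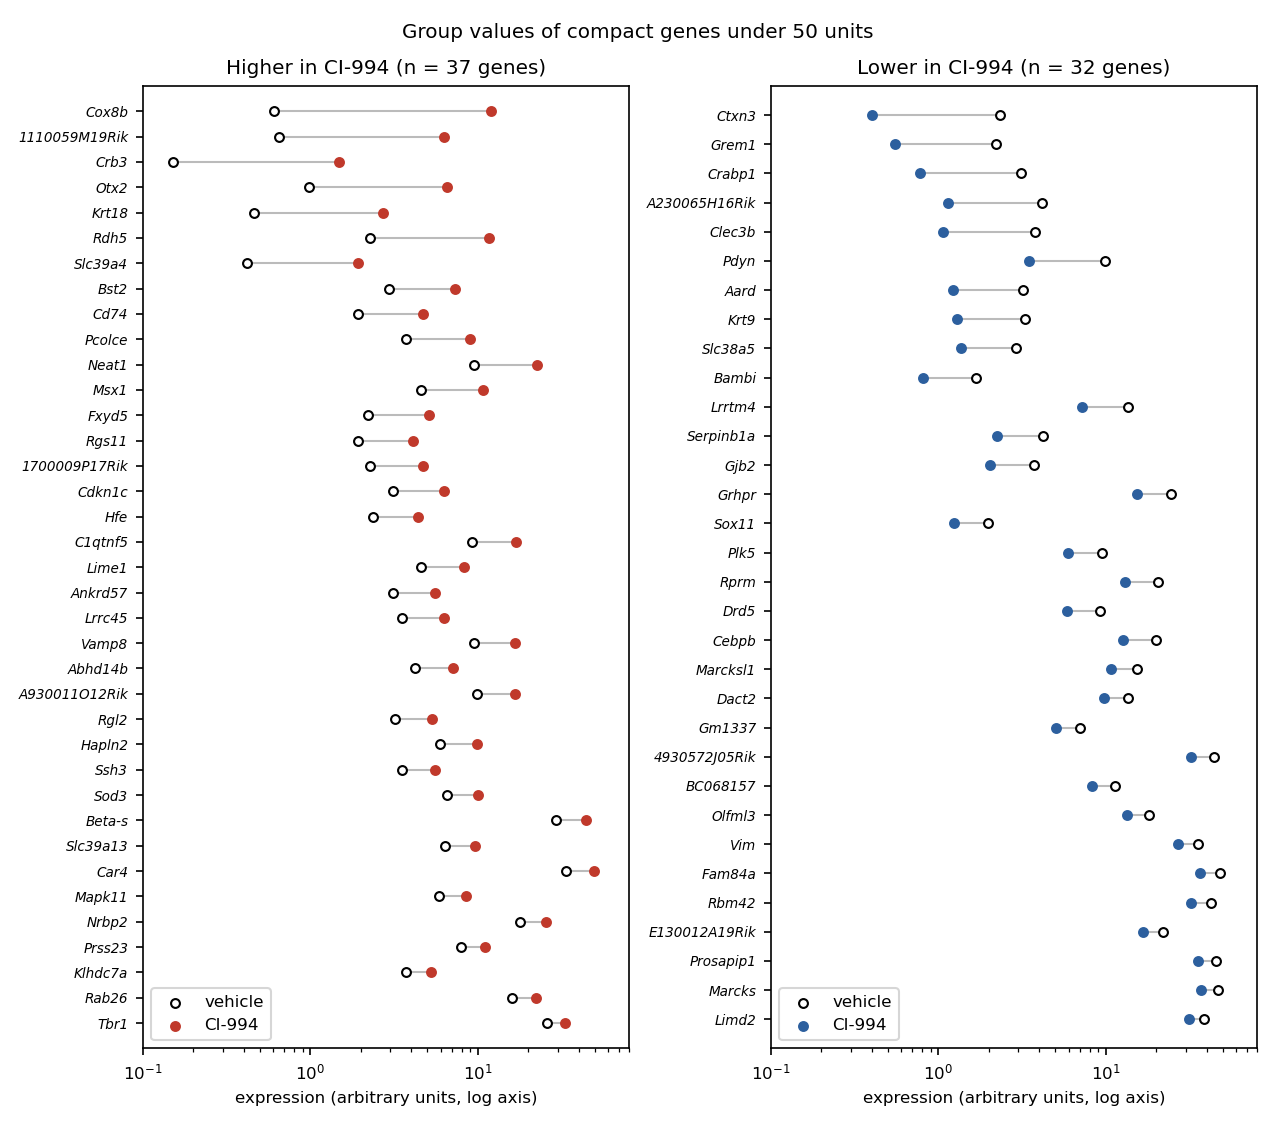
Group values of the 69 compact genes, with 1 row per gene and expression in arbitrary units on a log axis. Open points are the vehicle values and filled points the CI-994 values, with 37 genes higher on the left and 32 lower on the right, ordered by the size of the change from 19.9-fold for Cox8b and 5.83-fold for Ctxn3 downwards.

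The direction differed between compact genes of different level. At 50 units or more, 2 of 17 compact genes (11.8%) were higher. Listed genes of any span also had fewer increases at higher vehicle levels. Their share of increases went from 64.3% at 1 to under 5 units to 17.1% at 25 to under 50 units. The 11.8% is therefore not shown to be particular to compact genes. Among loci of 100 kb or more 31 of 123 (25.2%) were higher, and among loci from 10 to under 100 kb 116 of 243 (47.7%). Of the 23 compact genes set aside by name 13 (56.5%) were higher. When choroid plexus markers were left out, 29 of the remaining 61 genes (47.5%) were higher, against 36.3% of the table without them, and the median log2 ratio of the set was -0.34 in place of 0.49. Every choroid marker in the table was higher, so leaving them out could only lower the median. With 37 genes higher, 32 lower and none between -0.31 and 0.35, leaving out a few higher genes of any kind turns its sign. The share of higher genes stood above that of the table with and without the markers. The table also holds genes at 50 units or more, which the rule leaves out, and the vehicle value is the denominator of the ratio. This contrast is therefore no independent result.

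**Figure D2:**
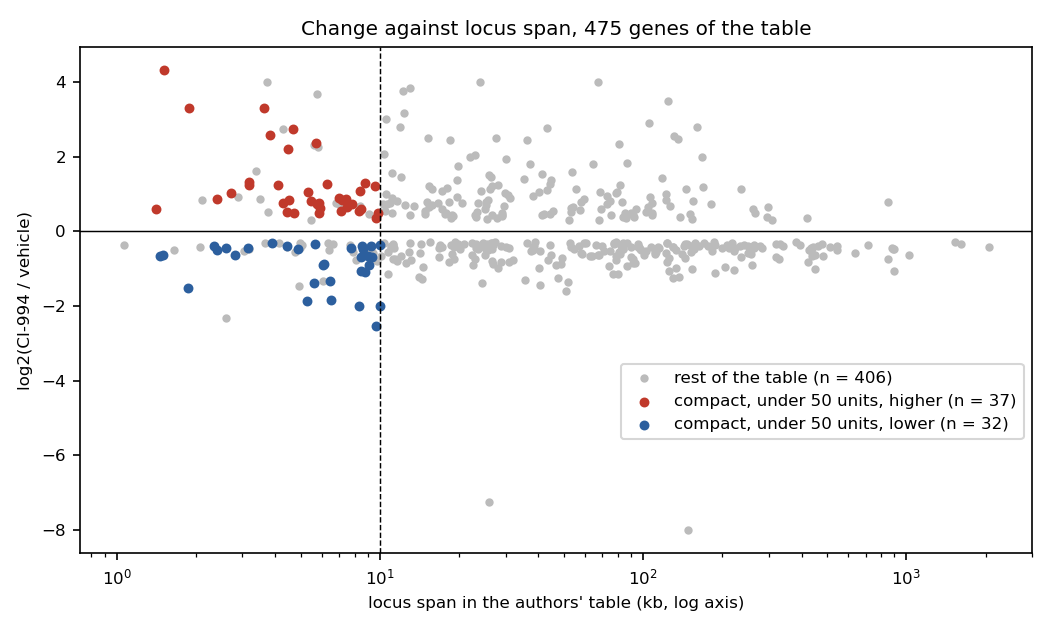
Log2 ratio of CI-994 over vehicle against the locus span in kb (log axis) for the 475 genes of the table. Coloured points left of the dashed line at 10 kb are the 69 compact genes, 37 above and 32 below 0, and grey points are the 406 others.

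**Figure D3:**
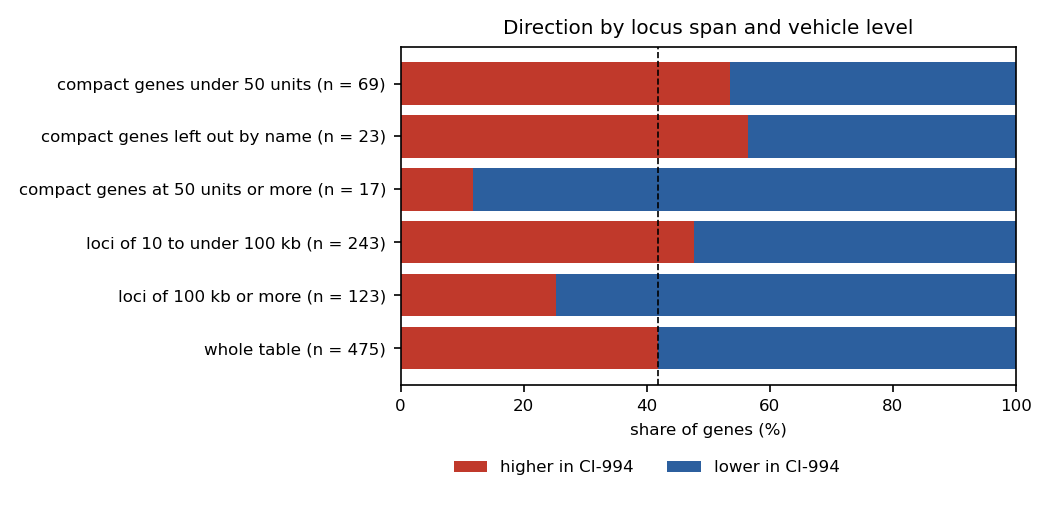
Share of genes higher (red) and lower (blue) in CI-994 by locus span and vehicle level, in percent of the genes named at each bar. The dashed line marks the 41.9% of the whole table, and the bar of compact genes at 50 units or more reaches 11.8%.

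Within the set the size of the ratio went with the vehicle level. All 6 genes under 1 unit in vehicle were higher, with a median absolute log2 ratio of 3.01. From 1 to under 5 units 17 of 29 genes were higher and the median was 1.08. From 5 to under 25 units 11 of 24 were higher, with a median of 0.64, and from 25 to under 50 units 3 of 10 were higher, with a median of 0.39. The whole table had the same order, with medians of 2.45, 0.91, 0.55 and 0.42. All 37 genes of the table under 1 unit were higher too, so the 6 of the set did as every gene of that class. In the next 3 classes the shares of higher genes were 58.6%, 45.8% and 30.0% in the set and 64.3%, 35.4% and 17.1% in the table. Level and ratio share the vehicle value, so this order is no independent result. Just inside the locus threshold lay Grem1 (9974 bp, log2 ratio -2.02), Prosapip1 (9965 bp, -0.36) and Prss23 (9802 bp, 0.49), and just outside it Rasd2 (10170 bp, -0.34), Wbscr27 (10265 bp, 0.73) and Epn3 (10376 bp, 2.08). Just inside the level threshold lay Fam84a (47.9 units in vehicle, log2 ratio -0.39), Marcks (46.6 units, -0.34) and Prosapip1 (45.8 units), and just outside it AI593442 (50.1 units, -0.50), Lrrc10b (50.1 units, -0.41) and Fam100a (51.4 units, -0.37).

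The largest increase was that of Cox8b, the muscle-type form of a small subunit of cytochrome c oxidase. It was at 0.604 units in vehicle and 12.03 in CI-994 (log2 ratio 4.32), with a p of 0.0169 in the authors' deposited table. Its locus lies at chr7:148084840-148086345 in mm9. The X-linked 1110059M19Rik, which RefSeq now names Prr32, was at 0.647 and 6.32 units (log2 ratio 3.29, p = 1.57e-05 in the authors' deposited table). Crb3, a membrane protein of the Crumbs complex that sets up the apical side of epithelial cells, was at 0.151 and 1.48 units (log2 ratio 3.29), with a deposited p of 0.0330 in the authors' table. All 3 were under 1 unit in vehicle, so each fold has a denominator under 1 unit.

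The largest decreases were smaller in fold than the largest increases. Ctxn3, a cortexin, a small membrane protein of neurons, was at 2.33 units in vehicle and 0.400 in CI-994 (5.83-fold lower, p = 0.00229 in the authors' deposited table). Grem1, a secreted antagonist of bone morphogenetic proteins (BMPs), was at 2.22 and 0.548 units (4.05-fold lower, p = 0.00368 in the authors' deposited table). Crabp1, which binds retinoic acid in the cytosol, was at 3.11 and 0.780 units (3.99-fold lower), with a p of 0.0324 in the authors' deposited table. In these 3 genes the CI-994 value was the one under 1 unit. A230065H16Rik (now Lbhd2) followed at 4.18 and 1.14 units, a log2 ratio of -1.88 with p = 0.0295 in the authors' deposited table.

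To show the promoters at both ends of the range, the 250 bases before the most upstream RefSeq start are printed for 3 genes each way, those with the greatest ratio among genes with an entry in the RefSeq promoter table (GRCm38.p6). Each is given from 5′ to 3′ on the strand of its gene, and capitals mark matches to the GC box GGGCGG and the CCAAT box on either strand. The first 3 are from genes that were higher, at chr7:140900447-140900696 (minus strand), chrX:45090654-45090903 (plus) and chr17:57061951-57062200 (plus). The last 3 are from genes that were lower, at chr12:111406559-111406808 (plus), chr9:54764498-54764747 (plus) and chr2:113758649-113758898 (minus).
Cox8b: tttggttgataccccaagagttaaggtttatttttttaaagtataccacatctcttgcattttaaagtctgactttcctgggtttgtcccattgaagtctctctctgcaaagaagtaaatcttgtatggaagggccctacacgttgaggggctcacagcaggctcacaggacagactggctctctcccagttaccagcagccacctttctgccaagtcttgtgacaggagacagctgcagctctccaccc
1110059M19Rik: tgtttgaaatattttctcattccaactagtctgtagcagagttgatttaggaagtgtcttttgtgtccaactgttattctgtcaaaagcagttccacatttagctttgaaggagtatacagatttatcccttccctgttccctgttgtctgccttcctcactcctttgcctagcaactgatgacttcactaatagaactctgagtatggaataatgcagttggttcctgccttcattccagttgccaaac
Crb3: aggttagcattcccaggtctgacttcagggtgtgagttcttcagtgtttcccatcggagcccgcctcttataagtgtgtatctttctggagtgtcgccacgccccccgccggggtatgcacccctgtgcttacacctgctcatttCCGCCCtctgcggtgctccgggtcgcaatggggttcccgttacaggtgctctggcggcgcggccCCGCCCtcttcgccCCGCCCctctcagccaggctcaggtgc
A230065H16Rik: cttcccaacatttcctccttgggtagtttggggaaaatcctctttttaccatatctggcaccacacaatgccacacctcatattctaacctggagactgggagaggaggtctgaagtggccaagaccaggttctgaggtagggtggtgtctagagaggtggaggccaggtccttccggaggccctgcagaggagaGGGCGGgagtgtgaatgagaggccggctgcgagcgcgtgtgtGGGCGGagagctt
Crabp1: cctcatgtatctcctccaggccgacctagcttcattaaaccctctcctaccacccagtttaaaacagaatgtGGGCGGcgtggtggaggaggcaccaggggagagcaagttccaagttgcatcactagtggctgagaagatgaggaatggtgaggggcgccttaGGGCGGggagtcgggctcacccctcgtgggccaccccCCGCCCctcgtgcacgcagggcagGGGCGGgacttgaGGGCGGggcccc
Grem1: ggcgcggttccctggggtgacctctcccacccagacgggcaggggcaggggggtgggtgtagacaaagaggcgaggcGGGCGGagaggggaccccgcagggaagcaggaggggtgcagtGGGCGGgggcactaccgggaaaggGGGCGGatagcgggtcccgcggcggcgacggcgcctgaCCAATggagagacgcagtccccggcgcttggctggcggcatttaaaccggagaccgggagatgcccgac

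The windows of Cox8b and 1110059M19Rik held 0 matches to any motif searched and had a ratio of observed to expected CpG of 0.07 and 0.0. That of Crb3 held 3 GC boxes, with a CpG ratio of 0.69. Those of A230065H16Rik, Crabp1 and Grem1 held GC boxes, at CpG ratios of 0.36, 0.48 and 0.80. Of the 69 genes 51 had a window. A GC box (GGGCGG on either strand) was in 28 of them (54.9%), against 33.0% of 27025 promoters in the RefSeq table and 58.5% of 318 windows of the other listed genes. It was in 11 of 28 windows of higher genes and 17 of 23 windows of lower genes. A CpG ratio of at least 0.6 was reached by 35.3% of the set, 34.5% of all promoters and 55.0% of the other listed genes. The median GC content was 58.0% in the set, 52.0% in all promoters and 61.6% in the other listed genes. The compact genes thus had fewer CpG-rich windows than the genes listed beside them and about the share of promoters at large.

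The other motifs are given for the set, all promoters and the other listed genes, in this order. A CCAAT box (CCAAT) was in 29.4%, 34.5% and 34.3% of windows. The cAMP response element half-site TGACG was in 9.8%, 17.8% and 17.9%. The TATA box TATAAA was in 4 of 51 windows (7.84%), 3507 of 27025 and 25 of 318 (7.86%), and the AP-1 site TGACTCA in 1.96%, 4.43% and 1.89%. The E-box CACGTG was in 1.96%, 6.04% and 11.9%, and TAATCC, the core of the site bound by the homeodomain protein OTX2, in 5.88%, 6.37% and 6.92%. Both strands were searched, no motif is contained in another, and TAATCC was added after the other motifs had been counted. No comparison of these shares was tested.

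Choroid plexus epithelium secretes cerebrospinal fluid into the ventricles that border the hippocampus. The set held 8 genes of the choroid list, all higher, with log2 ratios from 1.01 to 4.32 and a median of 2.29. Otx2, a homeodomain factor that specifies this epithelium, was at 0.988 units in vehicle and 6.53 in CI-994 (6.61-fold), with p = 1.15e-07 in the authors' deposited table. Rdh5, a retinol dehydrogenase, was at 2.27 and 11.7 units (5.15-fold, p = 5.94e-08 in the authors' deposited table). Msx1, a second homeodomain factor, was at 4.57 and 10.7 units (log2 ratio 1.23, p = 9.98e-05 in the authors' deposited table). These 3 had deposited p-values far smaller than Cox8b, whose fold was larger.

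Krt18, a keratin of simple epithelia, was at 0.459 and 2.72 units (log2 ratio 2.57), and Slc39a4, a zinc importer, at 0.420 and 1.94 units (2.21). The authors' deposited table gives them p-values of 0.00160 and 0.00142. Bst2, the interferon-induced membrane protein that tethers viruses, was at 2.94 and 7.28 units (1.31), and Cdkn1c, a cyclin-dependent kinase inhibitor, at 3.13 and 6.31 units (1.01). Their p-values, 0.0148 and 0.0282 in the authors' deposited table, were above 0.01. The other 34 choroid markers in the table, outside the set, were also higher. Cox8b, Rdh5, Bst2 and Cdkn1c are made in other tissues too, so the list does not by itself place their RNA in the choroid plexus. The part of choroid plexus tissue in these ratios was not tested.

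C1qtnf5, a secreted C1q-like protein, was at 9.30 units in vehicle and 17.01 in CI-994 (log2 ratio 0.87, p = 0.00887 in the authors' deposited table). In GENCODE M21 it overlaps Mfrp on the same strand, and RefSeq gives Mfrp as another name of the C1qtnf5 record. Mfrp is on the choroid plexus list and has no row of its own in the table, and the C1qtnf5 locus there spans 7418 bp, as the RefSeq record does. Reads of the pair cannot be told apart.

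Of the transcription factors on a list of 120, 12 were in the table, 5 higher and 7 lower, and 5 of them were in the set. Beside Otx2 and Msx1, Tbr1, a T-box factor of glutamatergic neurons, was higher, at 25.9 and 33.1 units (log2 ratio 0.35, p = 0.0233 in the authors' deposited table). Cebpb, a leucine zipper factor induced by cAMP and needed for long-term memory in rats, was lower, at 19.95 units in vehicle and 12.7 in CI-994 (log2 ratio -0.65). Its deposited p in the authors' table was 0.0107. Sox11, a factor of immature neurons, was at 1.98 and 1.24 units (log2 ratio -0.68, p = 0.0195 in the authors' deposited table). Both Cebpb and Sox11 are genes without introns. Of 66 immediate early genes 10 were in the table, 6 higher and 4 lower, and 0 of them belonged to the set, because those with compact loci had been set aside by name.

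The set held 4 genes of synapses and neuronal signalling, each lower, as were 58.1% of all listed genes. Pdyn, the precursor of the dynorphin opioids and a dentate granule cell marker, was at 9.90 units in vehicle and 3.47 in CI-994 (2.86-fold lower, p = 0.00325 in the authors' deposited table). Lrrtm4, a postsynaptic adhesion protein of dentate granule cells, was at 13.5 and 7.20 units (1.88-fold lower), and its p of 0.000105 was the smallest of the decreases in the set in the authors' deposited table. Drd5, the D5 dopamine receptor, which raises cAMP, was at 9.18 and 5.84 units (1.57-fold lower, p = 0.00921 in the authors' deposited table). Prosapip1 (now Lzts3), a scaffold that binds postsynaptic Shank proteins, was at 45.8 and 35.8 units (1.28-fold lower), with p = 0.0158 in the authors' deposited table. This group of 4 was formed after the values were seen. Dentate markers as a whole were lower in CI-994, as given above, and their part in Pdyn and Lrrtm4 was not tested.

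On the fixed list of 56 neuropeptides and hormones 4 were in the table, 1 higher and 3 lower, with Pdyn as the 1 in the set. Vip, Penk and Adcyap1 also have loci under 10000 bp and vehicle values under 50 units, and were set aside by name. On the fixed list of 124 G protein-coupled receptors 5 were in the table, all lower, as were 58.1% of all listed genes, and 0 were in the set. Npy1r, Npy2r, Npy5r and Htr1a have loci under 10000 bp and vehicle values under 50 units, but had been set aside by name. Drd5 was not on the receptor list, which does not hold every such receptor of the table. Off the list, Htr2c was higher, at 8.21 units in vehicle and 17.8 in CI-994, and Htr4, Grm2 and Chrm3 were lower. Among the dentate markers in the set, Plk5, a member of the polo-like kinase family, was at 9.44 and 5.94 units (log2 ratio -0.67), and Marcks at 46.6 and 36.8 units.

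Marcks and Marcksl1, paralogous substrates of protein kinase C that bind actin and the plasma membrane, were both lower. Marcksl1 was at 15.3 units in vehicle and 10.8 in CI-994 (log2 ratio -0.50), against -0.34 for Marcks, and their p-values were 0.0477 and 0.0222 in the authors' deposited table. Keratins went both ways, with Krt18 higher as given above and Krt9, a keratin of palm and sole skin, lower at 3.29 and 1.30 units (log2 ratio -1.34, p = 0.00141 in the authors' deposited table). Vim, the intermediate filament protein of mesenchymal and glial cells, was at 35.4 and 26.9 units (-0.40). Gjb2, a connexin of meningeal cells, was at 3.74 and 2.04 units (-0.88).

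Ssh3, a phosphatase that activates cofilin (log2 ratio 0.65), Lrrc45, a protein of the centriole linker (0.84), and 1700009P17Rik, a protein of cilia now named Cfap126, were higher. The last of these was at 2.27 units in vehicle and 4.68 in CI-994 (1.04, p = 0.0451 in the authors' deposited table). Of 25 ependymal markers 2 were in the table, both higher, with sums of 3.85 units in vehicle and 7.35 in CI-994. The fixed list of 87 cytoskeletal, junction and cilia genes had 10 in the table, 7 higher and 3 lower, and the 3 lower ones, Vim, Gjb2 and Krt9, were all compact.

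Of 7 matrix and extracellular proteins, grouped after the values were seen, 5 were higher and 2 lower, while the secreted Grem1 and the precursor Pdyn, grouped elsewhere, were lower. Pcolce, which enhances the cleavage of procollagen, was at 3.73 units in vehicle and 9.01 in CI-994 (2.42-fold, p = 0.000332 in the authors' deposited table). Hapln2, a link protein of the matrix at nodes of Ranvier and the 1 oligodendrocyte marker of 27 in the table, was at 5.98 and 9.88 units (log2 ratio 0.72, p = 0.00875 in the authors' deposited table). Sod3, the extracellular superoxide dismutase (0.62), and the secreted protease Prss23 (0.49) were higher as well. Clec3b, or tetranectin, a plasminogen-binding protein, was lower, at 3.80 and 1.06 units (3.58-fold, p = 0.00856 in the authors' deposited table), and so was the olfactomedin-like Olfml3 (-0.45). On the fixed list of 64 matrix genes 14 were in the table, 8 higher and 6 lower, and 3 of them were in the set.

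Clec3b and Gjb2 are also on the list of 29 meningeal markers. Of these 7 were in the table, 1 higher and 6 lower, with sums of 478 units in vehicle and 359 in CI-994. Ptgds, at 443 and 307 units, set the direction of that sum. Without it the other 6 markers summed to 35.8 and 51.0 units, with Igf2, which is also a choroid marker, at 15.8 and 41.1. The part of meningeal tissue in their ratios was not tested.

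The set held 3 modulators of BMP, activin and Wnt signals, each lower, as were 58.1% of all listed genes. Beside Grem1, Bambi, a receptor-like membrane protein without kinase activity that blocks BMP and activin signals, was at 1.69 units in vehicle and 0.811 in CI-994 (2.08-fold lower, p = 0.00789 in the authors' deposited table). Dact2, an intracellular modulator of Wnt and Nodal signals, was at 13.6 and 9.71 units (log2 ratio -0.48). Of the 97 growth factors, cytokines and antagonists on the fixed list 11 were in the table, 6 higher and 5 lower, with Grem1 as the 1 in the set. The group of 3 was formed after the values were seen, and it does not hold every such gene of the table. Sostdc1, a BMP antagonist and choroid plexus marker with a compact locus that had been set aside by name, was higher, at 4.08 units in vehicle and 27.2 in CI-994 (log2 ratio 2.73).

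**Figure D4:**
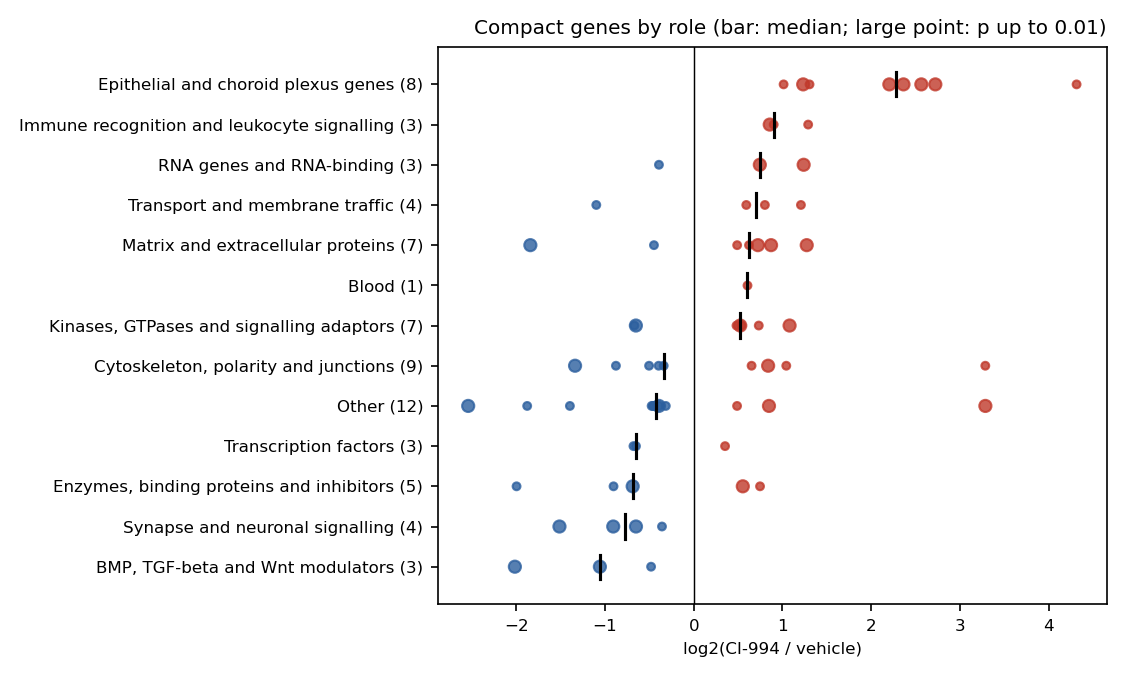
Log2 ratio of CI-994 over vehicle for the 69 compact genes, 1 point per gene, in 13 groups by role with the number of genes in brackets. The bar is the group's median, from -1.06 for the BMP, TGF-beta and Wnt modulators to 2.29 for the epithelial and choroid plexus genes, and large points have a p up to 0.01 in the authors' deposited table.

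The set held 3 genes of immune recognition, grouped after the values were seen, and each was higher, as were 41.9% of all listed genes. Cd74, the invariant chain of MHC class II, was at 1.92 units in vehicle and 4.68 in CI-994 (2.45-fold, p = 0.0286 in the authors' deposited table). Hfe, an MHC class I-like regulator of iron uptake, was at 2.36 and 4.40 units (1.87-fold), with a p of 0.0299 in the authors' deposited table. Lime1, a membrane adaptor of lymphocyte signalling, was at 4.60 and 8.32 units (1.81-fold, p = 0.00445 in the authors' deposited table). Its locus overlaps Zgpat on the same strand in GENCODE M21, so reads of Zgpat could have been counted with it. Of 70 genes of antigen presentation and the interferon response, Bst2 and Cd74 were the 2 in the table, both higher. Of 28 microglial and macrophage markers 0 were in the table, which lists changed genes alone.

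Signalling genes were divided. Rgs11, which speeds the shut-off of G proteins, was at 1.94 and 4.10 units (log2 ratio 1.08, p = 0.00907 in the authors' deposited table). Also higher were Rgl2, an exchange factor for Ral (0.73), the p38 kinase Mapk11 (0.54), the pseudokinase Nrbp2 (0.52, p = 0.00361 in the authors' deposited table) and the vesicle GTPase Rab26 (0.48). Lower were Plk5 and Rprm, a mediator of cell cycle arrest downstream of p53, which was at 20.6 and 13.1 units (-0.65, p = 0.00755 in the authors' deposited table). On the fixed list of 116 signalling genes 15 were in the table, 5 higher and 10 lower. Cdkn1c and Rab26 were the 2 in the set, and both were higher.

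Among transport and membrane traffic genes 3 of 4 were higher. Fxyd5, a subunit that modulates the sodium pump, was at 2.22 and 5.14 units (log2 ratio 1.21), with p = 0.0366 in the authors' deposited table. Vamp8, a SNARE protein of endosomes and secretory granules, was at 9.53 and 16.6 units (0.80), and the zinc transporter Slc39a13 at 6.36 and 9.58 units (0.59). The X-linked Slc38a5, an amino acid transporter that carries glutamine, was lower at 2.92 and 1.36 units (-1.10). Both zinc transporters of the set, Slc39a4 and Slc39a13, were thus higher. On the fixed list of 107 channel, pump and transporter genes 16 were in the table, 10 higher and 6 lower, with Slc39a4 and Fxyd5 in the set.

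Enzymes and binding proteins went both ways. Car4, a membrane-anchored carbonic anhydrase, was at 33.8 units in vehicle and 49.6 in CI-994 (1.47-fold, p = 0.00298 in the authors' deposited table), and the hydrolase Abhd14b was higher by a log2 ratio of 0.75. Grhpr, which reduces glyoxylate and hydroxypyruvate, was lower, at 24.6 and 15.3 units (1.61-fold, p = 0.00516 in the authors' deposited table). Serpinb1a, an inhibitor of neutrophil proteases, was at 4.22 and 2.25 units (-0.90). It belongs to a family of close copies in the mouse, between which the counting could have divided reads. On the fixed list of 96 metabolic genes 11 were in the table, 7 higher and 4 lower, of which Cox8b, Rdh5, Car4 and Crabp1 were in the set.

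The set held 2 long noncoding RNAs by RefSeq type, both higher, as were 41.9% of all listed genes. The table held 11 such RNAs, 9 of them outside the set, whose directions were not counted by type. Neat1, the RNA scaffold of nuclear paraspeckles, was at 9.53 units in vehicle and 22.5 in CI-994 (2.36-fold). Its p of 2.95e-11 was the smallest of the set in the authors' deposited table. Malat1, a nuclear RNA encoded 39630 bp away in the table, was also higher (log2 ratio 0.73). A930011O12Rik, which RefSeq names Mir124a-1hg, a host transcript of microRNA-124, was at 9.91 and 16.6 units (1.68-fold, p = 4.87e-05 in the authors' deposited table). The table gives the host transcript and no value for the microRNA. Rbm42, an RNA-binding protein, was lower, at 42.3 and 32.2 units (log2 ratio -0.39).

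The remaining genes have roles that are less settled or stand alone. Ankrd57 (now Sowahc), an ankyrin repeat protein, was at 3.10 and 5.58 units (1.80-fold, p = 0.000666 in the authors' deposited table), and Klhdc7a, a kelch protein, was higher by 0.49 in log2 ratio. Aard was at 3.21 and 1.22 units (-1.40, p = 0.0154 in the authors' deposited table). Also lower were BC068157 (-0.45), 4930572J05Rik, now Them6 (-0.46), and Gm1337, now Ankrd63 (-0.47). Fam84a (-0.39), E130012A19Rik, now Epop (-0.39), and Limd2 (-0.31) were lower too, by less than the other decreases named here. EPOP binds the Polycomb repressive complex in mouse embryonic stem cells. The fixed list of 48 histones and chromatin proteins, on which it does not stand, had 2 genes in the table, 1 higher and 1 lower, and 0 in the set.

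Beta-s, the beta globin of red blood cells, was at 29.2 units in vehicle and 44.3 in CI-994 (log2 ratio 0.60, p = 0.0206 in the authors' deposited table). It was the 1 marker of blood in the table, of 16 on the list, and near-identical globin copies may share its reads. Single markers of other cells in the table lay outside the set. They were 1 of 23 astrocyte markers, at 47.2 and 37.2 units, and 1 of 34 endothelial and mural markers, at 2.92 and 2.05 units. Of 25 interneuron markers 4 were in the table, 1 higher and 3 lower.

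The short locus of a gene in the table did not always reflect its full length. Of the 69 genes 68 matched RefSeq, 11 of them under another name, and 66 were protein-coding. For 47 of the 68 the span in the table was within 5% of that in RefSeq GRCm38.p6, but 11 spanned 10000 bp or more there, 5 of them higher and 6 lower. Lrrtm4 spans 791305 bp in RefSeq against 6056 bp in the table, and Neat1 20773 against 3177 bp. Pdyn spans 13390 against 1868 bp, and Otx2 10864 against 4689 bp. For these genes the locus in the table is shorter than the span of the current gene model. Among the 57 genes that are also under 10000 bp in RefSeq 56.1% were higher, close to the 53.6% of the whole set.

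**Figure D5:**
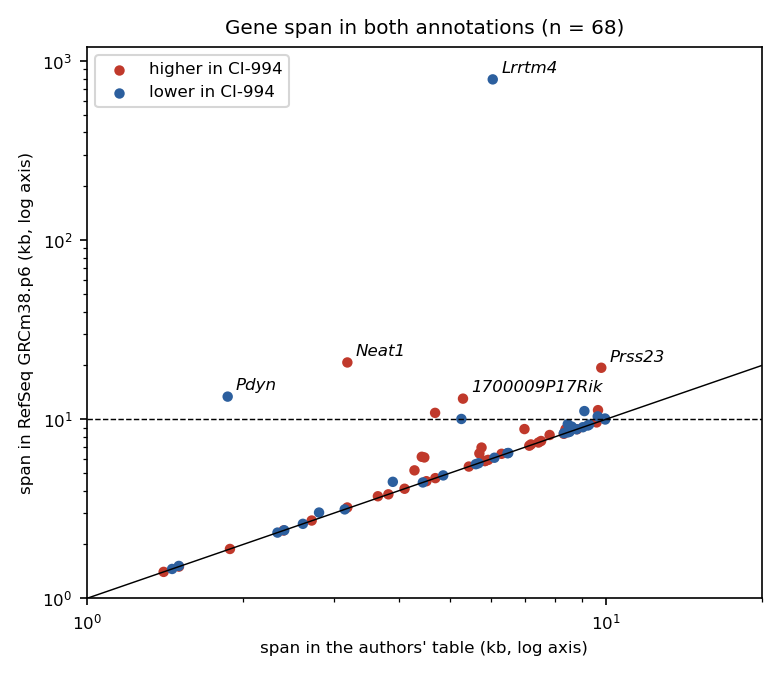
Span of 68 compact genes in the authors' table against their span in RefSeq GRCm38.p6, both in kb on log axes. The diagonal marks equal spans and the dashed line 10 kb, above which 11 genes lie, with Lrrtm4 farthest from the diagonal.

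Proteins of the set were short, with a median of 314 residues and a range from 70 for Cox8b to 778 for Rgl2, against a median of 490 for the table (GENCODE M21, longest coding transcript). Their transcripts had a median of 4 exons against 8 in the table, and 9 of 68 (13.2%) had a single exon against 3.59%. These 9 were Neat1, Ankrd57, Klhdc7a, E130012A19Rik, Gm1337, Cebpb, Drd5, Rprm and Sox11, of which 3 were higher and 6 lower. Few exons and short proteins go with a short locus, so this describes the choice of genes. In GENCODE M21 27 of the genes overlap another annotated gene, and 18 of them 1 on the opposite strand. Among these are Crb3 with Dennd1c, Abhd14b with Abhd14a, Slc39a13 with Psmc3, Rgs11 with Arhgdig and Otx2 with Otx2os1. The labels do not say whether counting used strand, so reads from stretches that such pairs share could have been counted with either gene. On the same strand Rdh5 overlaps Bloc1s1, Pcolce overlaps Fbxo24 and Rab26 overlaps Traf7, where counting by strand would not separate shared stretches. The length of the overlaps was not measured.

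Neighbouring genes in the table did not always share a direction. Within 100 kb of a gene of the set lay 5 others of the table. Neat1 and Malat1 were both higher, as were 1700009P17Rik and Pcp4l1 (log2 ratio 0.44), while Dact2 and Smoc2 (-0.73) were both lower. In contrast, 4930572J05Rik was lower and Arc, 48663 bp away, higher (0.85), and Marcksl1 was lower with Zbtb8b higher (0.77).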

How the data were processed

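Total RNA of the hippocampus of 3 CI-994 and 3 vehicle mice was sequenced. The submitters' processing notes name TopHat, Cuffdiff and mm9, without versions, annotation or library normalisation. The deposited table gives, per the file headers, for each of 475 genes a locus, 2 group values (an expression signal in arbitrary units), a p-value and a log2 ratio. Depth is unknown. The units are not stated to be per length. The level threshold, the level classes and the choice of the highest and lowest genes in vehicle nevertheless order genes by these units. Whether that order depends on transcript length was not tested. The deposited log2 column equals vehicle over CI-994 within 0.0001 in 475 genes, and log2 ratios were recomputed from the deposited signal, without a pseudocount.

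The genes and 23 gene lists (12 by role, 11 of markers) were chosen with earlier results of these data known, and roles were grouped after the values were seen. Genes were given with values if they were among the 12 largest increases or decreases of genes not under 1 unit in either group, or had a larger fold with a value under 1 unit. Values were also given for genes with p up to 0.001, genes on a list, the 3 genes on either side of each threshold, and the 3 highest and 3 lowest in vehicle. The others were named with their log2 ratio or fold, and for some of them, such as Drd5, Rprm and Lime1, values were given too. With 1 value per group no test was possible, and the shares are counts of the table. The counts and the median were tested on simulated tables with set directions. The same rule chose the genes when directions were set and when they were counted, so the rule itself was not tested. Symbols were matched to RefSeq GRCm38.p6 and GENCODE M21, whose coordinates are on another build. RefSeq gave the spans and the promoter windows, and GENCODE M21 the overlaps between genes. Exon numbers and protein lengths came from the transcript with the longest coding part. Tables were made in Python 3.11.15 with pandas 2.3.3 and numpy 2.4.6, and plots with matplotlib 3.10.9.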

Additional observations from a re-analysis of the deposited data

How the results depend on the processing

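The share of higher genes, 53.6%, became 88.9% (8 of 9 genes) at p up to 0.001 and 46.4% when the sign was taken as that column's header words it, which turns every gene by construction. The median log2 ratio of 0.49 became 1.24 at p up to 0.001 and -0.49 with the sign of the header. It was -0.34 without choroid plexus markers, -0.31 without the marker genes of any list and -0.0018 for vehicle values under 100 units, since higher and lower genes are nearly balanced and no gene lies near 0. The share changed at least 2-fold, 37.7%, was 24.6% with a pseudocount of 1, which shrinks the ratios of low genes. A pseudocount of 1 or 0.1 turned 0 of the 69 directions, which it cannot do. The share of p up to 0.01 changed by less than 1.5 times under every setting run. Settings with the RefSeq span and without X-linked genes were chosen after seeing the data. No paired analysis was possible because the table holds 1 value per group, and for the same reason no mouse could be left out. Depth is unknown, so its limit on low genes could not be given.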
